A study of Mus musculus with 5 samples.

Results

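The stretch of mouse chromosome 13 that lies 10 to 500 kb upstream of a bait at the Pik3r1 promoter region holds almost no annotated genes, and its contacts with that bait are described here. Its members are the 1204 DpnII restriction fragments with a midpoint from 101776366 to 102266365 (mm10), out of 292200 fragments of the chromosome. They were chosen by position alone. The bait lay at 101766365, inside Pik3r1 and 1852 bp from the higher-coordinate end of the gene, where its longest transcript starts on the minus strand, so higher coordinates are upstream. Annotated genes covered 3.53% of the 490 kb.

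Pik3r1 encodes p85α, a regulatory subunit of phosphoinositide 3-kinase, the lipid kinase that relays insulin and growth factor signals in muscle and antigen receptor signals in lymphocytes. Enhancers often lie in DNA without genes, and can act on a promoter by being brought close to it when chromatin folds. In 4C-seq, crosslinked chromatin is cut, and fragments that lie close to each other in the nucleus are ligated. The DNA joined to 1 chosen bait fragment is then amplified and sequenced. Reads fall steeply with distance from the bait because nearby DNA meets it by chance, so a regulatory contact is sought as a rise above that decline.

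The 5 libraries comprised 1 of double-positive (DP) thymocytes, which are immature T cells sorted here with CD4 and CD8 antibodies, 2 of wild-type (WT) skeletal muscle and 2 of GRko skeletal muscle. GRko is read as a knockout of the glucocorticoid receptor, a hormone-activated transcription factor, from what is known of the study. All mice are given as strain C57/Bl6; the thymus came from wild-type mice aged 4 weeks and both muscle groups from mice aged 10 to 12 weeks, with no drug treatment named. The receptor gene lies on another chromosome and the counts hold no expression, so neither genotype nor cell type could be checked. What drives the deletion, and whether animals were pooled, are not given in the sources used here. Muscle was processed as extracted nuclei, which can include those of cells other than muscle fibres, and thymocytes as sorted cells. Tissue, age and preparation differed together and cannot be told apart. In such bulk material, fewer nuclei with a contact and a rarer contact in every nucleus cannot be told apart either.

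Library sizes differed widely. Within 1.5 Mb of the bait, leaving out the nearest 10 kb on either side, thymocytes had 4902222 reads, WT muscle replicates 1 and 2 had 2890841 and 1337018, and GRko replicates 1 and 2 had 1699603 and 634064. All shares below are percentages of these tested reads. Reads were 29 nt long in thymocytes and in replicate 1 of both muscle groups, and 23 nt in replicate 2 of both, so replicate number and read length go together. Whether replicates stem from separate animals is not stated in the labels; p-values therefore describe library-to-library spread, which may be technical. Reads carry no molecular identifiers. Intervals given for the thymocyte library treat every read as independent, PCR copies included, so they cover counting error of reads only and are too narrow for contacts.

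The only gene of any length inside the region is Gm41044, a long noncoding RNA gene on the minus strand at chr13:101998661-102014347, 232 to 248 kb from the bait. Its promoter is shown because it is the only annotated start site of the region with a sequence to hand, and because it is cut by the enzyme that defines the measured fragments. The RefSeq sequence (GRCm38.p6, the build of mm10) covers chr13:102014298-102014597 and is written 5′ to 3′ on the minus strand, with the GATC sites of DpnII in capitals.
Gm41044 promoter: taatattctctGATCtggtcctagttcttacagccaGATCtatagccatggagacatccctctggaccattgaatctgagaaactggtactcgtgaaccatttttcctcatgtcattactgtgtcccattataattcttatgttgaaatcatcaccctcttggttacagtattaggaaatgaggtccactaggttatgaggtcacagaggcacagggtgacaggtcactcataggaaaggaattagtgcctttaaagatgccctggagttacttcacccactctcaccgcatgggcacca
The sequence held 2 sites, and 48.9% of 1527 promoter windows of this length on chromosome 13 held at least 1. The fragment that runs from the inner site into the gene (midpoint 102013897) had 3919 reads in thymocytes, 2635 and 3016 in WT muscle, against 1 and 5505 in GRko muscle. The 25 bp fragment between the sites had 1218 reads in thymocytes, 271 and 1939 in WT, against 0 and 1293 in GRko muscle. A further fragment that overlaps the window at its upstream end (midpoint 102014598) had 331 reads in WT replicate 1 and 0 in the other 4 libraries. The first fragment lies mostly in the gene body, being longer than the window, so its reads are not those of the promoter alone. On the first 2 fragments reads were present in 4 of the 5 libraries and nearly missing from GRko replicate 1.

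The upstream region took far more reads than its size alone would give. It held 16.5% of the tested fragments. Thymocytes had 32.1% of their reads there (95% Wilson interval 32.1 to 32.1), compared with 44.1% and 38.5% in WT muscle, against 40.3% and 42.8% in GRko muscle. The mirror region, 10 to 500 kb on the other side of the bait, held 1193 fragments and took 36.0% of thymocyte reads, 19.8% and 22.0% in WT, against 22.9% and 28.7% in GRko muscle. In every muscle library the upstream region exceeded its mirror, by between 1.49 and 2.23-fold, whereas in thymocytes it held 0.891 times the reads of the mirror.

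**Figure D1:**
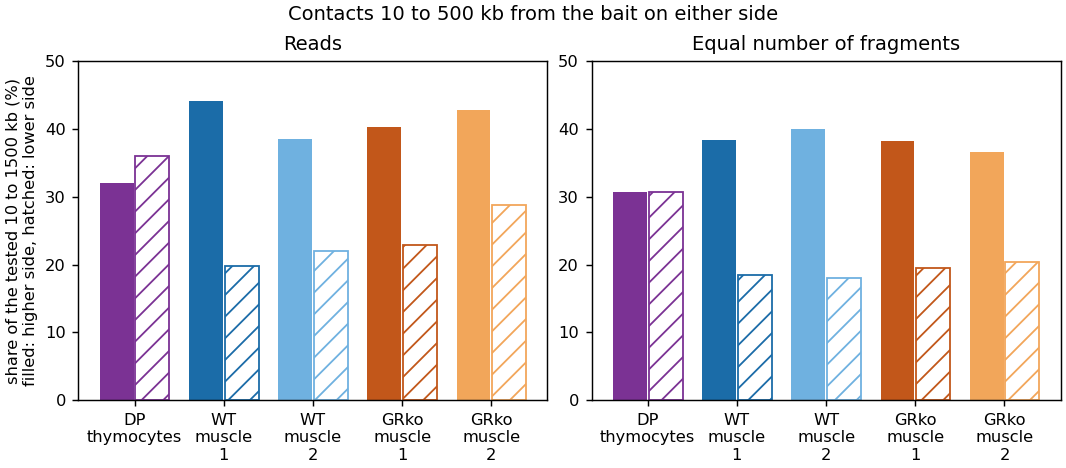
Filled bars give the share (percent) of each library in the upstream region (higher side) and hatched bars its share in the mirror region (lower side), for reads on the left and for 1062 fragments taken from every library on the right. For reads, all 4 muscle libraries lie between 38.5% and 44.1% upstream and between 19.8% and 28.7% on the mirror side, and the thymocyte library lies at 32.1% and 36.0%.

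The total taken by the region differed between WT and GRko muscle by less than the spread of their libraries. WT muscle had a mean of 41.3% ± 3.97 and GRko muscle one of 41.6% ± 1.80 (SD, both n = 2), and the GRko values lay between the WT values. The difference of 0.230 percentage points had p = 1 in an exact two-sided permutation test, whose smallest possible p for 2 against 2 libraries is 0.3333. It was -3.85 points between the 29 nt libraries and 4.31 points between the 23 nt libraries, and so had no common sign within read lengths. Of the reads within 500 kb on both sides, the upstream side held 69.0% and 63.7% in WT, against 63.7% and 59.9% in GRko muscle, a difference of -4.54 points with p = 0.667 in the same exact test. It was -5.26 points within 29 nt libraries and -3.83 points within 23 nt libraries, and 0.801 points with covered fragments in place of reads.

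DP thymocytes placed less of their signal upstream than any muscle library. Their share of 32.1% lay under the lowest muscle value of 38.5%, and thymocytes minus the WT mean was -9.25 points. Of reads within 500 kb, 47.1% were upstream in thymocytes, -19.2 points from the WT mean of 66.3% ± 3.75 (SD, n = 2). Both exact two-sided permutation tests against the 4 muscle libraries gave p = 0.2, the smallest that 1 against 4 allows, and 0.6 after adjustment over 6 tests. When the 1062 fragments of most reads were taken from every library, each counted once, 50.0% lay upstream in thymocytes, 67.5% and 68.8% in WT, against 66.2% and 64.1% in GRko muscle. Equal numbers of fragments therefore kept thymocytes below the muscle range. Restricting the region share to fragments with reads at both read lengths, an alternative chosen after seeing the data, left a difference of -3.50 points, with p = 0.6 in the exact test.

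Inside the region, reads declined with distance in all 5 libraries, most steeply in thymocytes. From the first 50 kb step (10 to 50 kb) to the last (450 to 500 kb), reads per fragment fell from 4525 to 398 in thymocytes, an 11.4-fold decline. The decline was 3.95 and 5.55-fold in WT, against 7.96 and 3.58-fold in GRko muscle. Thymocytes had 49.7% of their region reads within 100 kb of the bait, WT muscle 38.3% and 42.7%, and GRko muscle 43.9% and 34.8%. The median distance of region reads was 102 kb in thymocytes, 155 and 159 kb in WT, and 138 and 199 kb in GRko muscle. Thymocytes lay below all muscle libraries in this median, and the GRko values enclosed those of WT. The difference of thymocytes from WT was -54.4 kb (exact two-sided permutation p = 0.4, adjusted 0.8 over 6 tests) and that of GRko from WT 11.6 kb (p = 1 in the exact test). With covered fragments counted once in place of reads, thymocytes minus WT turned to 12.3 kb and so changed sign.

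In 50 kb steps, the tissues had similar shares next to the bait, and thymocytes had the lowest shares in the far part of the region. The step from 10 to 50 kb held 10.7% of tested reads in thymocytes, 9.75% and 9.50% in WT, against 11.3% and 11.1% in GRko muscle. From 50 to 100 kb the shares were 5.23% in thymocytes, 7.15% and 6.96% in WT, against 6.42% and 3.83% in GRko muscle. From 100 to 150 kb they were 2.71% in thymocytes, 4.68% and 2.58% in WT, against 3.17% and 1.23% in GRko muscle. Both GRko libraries lay above WT in the first of these steps and below WT in the second, and the groups overlapped in the third. The step from 150 to 200 kb held 3.05% in thymocytes, 3.84% and 3.64% in WT, against 2.73% and 5.32% in GRko muscle. From 200 to 250 kb, which contains Gm41044, the shares were 2.15% in thymocytes, 4.73% and 4.27% in WT, against 2.60% and 7.22% in GRko muscle. From 250 to 300 kb they were 2.34% in thymocytes, 2.65% and 2.17% in WT, against 3.70% and 2.38% in GRko muscle. In these middle steps the GRko values spread widely, and thymocytes fell below all muscle libraries only between 200 and 250 kb.

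Beyond 300 kb the thymocyte library was mostly the lowest. From 300 to 350 kb it held 2.28%, WT muscle 3.02% and 2.75%, and GRko muscle 4.47% and 1.61%. From 350 to 400 kb thymocytes held 1.57%, WT 2.47% and 2.80%, and GRko 2.84% and 3.67%. Thymocytes were thus inside the muscle range in the first of these steps and below it in the second. From 400 to 450 kb they held 1.08%, WT 3.28% and 2.08%, and GRko 1.62% and 3.24%. From 450 to 500 kb they held 0.983%, WT 2.57% and 1.79%, and GRko 1.48% and 3.24%. In these last 3 steps the thymocyte value lay below all 4 muscle values, and in the last 2 the WT and GRko values overlapped.

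**Figure D2:**
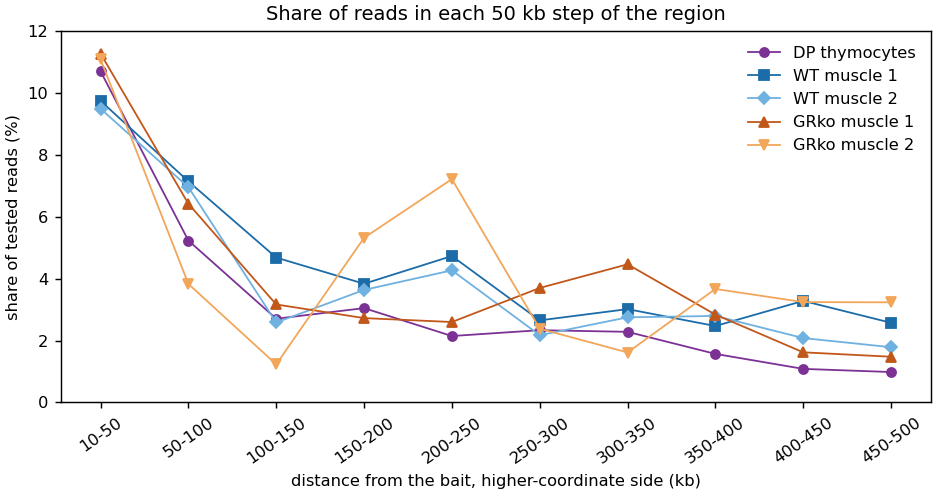
Share of tested reads (percent) in each 50 kb step of the upstream region, by distance from the bait (kb), with 1 point and line per library. Shares fall from between 9.50% and 11.3% in the first step to between 0.983% and 3.24% in the last, and the thymocyte points are the lowest from 350 kb on.

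No step of the region passed the test between GRko and WT muscle. With edgeR's quasi-likelihood test on the 50 kb steps, 0 of 10 passed at an adjusted p of 0.05 and 0 at an unadjusted p of 0.05; of all 59 steps tested within 1.5 Mb, 1.69% passed either way. DESeq2 called 0 of 10 and 0% of all. The log2 ratios of GRko over WT ran from -0.72 ± 0.487 (SE) at 100 to 150 kb to 0.33 ± 0.507 at 250 to 300 kb, all with an edgeR adjusted p of 0.982. The ratio of the 10 to 50 kb step was 0.22 ± 0.196 and that of the 50 to 100 kb step -0.46 ± 0.291. Both GRko libraries exceeded both WT libraries in 2 of 10 steps, beside 15.3% of all steps, and lay below them in 1 of 10, beside 18.6%. Without GRko replicate 1, the 50 to 100 kb step had a ratio of -0.88 ± 0.237 and an edgeR adjusted p of 0.0134, a call that rests on GRko replicate 2 alone.

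No step passed the test between thymocytes and WT muscle either, although most ratios were below 0. In edgeR 0 of 10 steps were called, beside 3.33% of all 60 steps, and 1 passed without adjustment, beside 10% of all; DESeq2 called 0 of 10, beside 1.67% of all. The single thymocyte library was assumed to vary like the muscle libraries. The step from 200 to 250 kb had a log2 ratio of -1.07 ± 0.457 (SE), with an edgeR adjusted p of 0.345. The ratio was -1.31 ± 0.763 at 400 to 450 kb and -1.15 ± 0.826 at 450 to 500 kb, against 0.15 ± 0.212 at 10 to 50 kb. In all, 9 of 10 ratios were below 0, beside 53.3% of all steps. The count was 8 with TMM factors and 6 with the reads of the region as library size, which removes the lower total of the region in thymocytes. Thymocytes lay below all 4 muscle libraries in 4 of 10 steps, beside 23.3% of all, and above all of them in 0, beside 25%. In 1 of the 4, at 400 to 450 kb, being below GRko replicate 2 rested on 1 fragment. Without GRko replicate 1, which enters only the estimate of spread, the 200 to 250 kb step had an adjusted p of 0.0151 in edgeR.

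**Figure D3:**
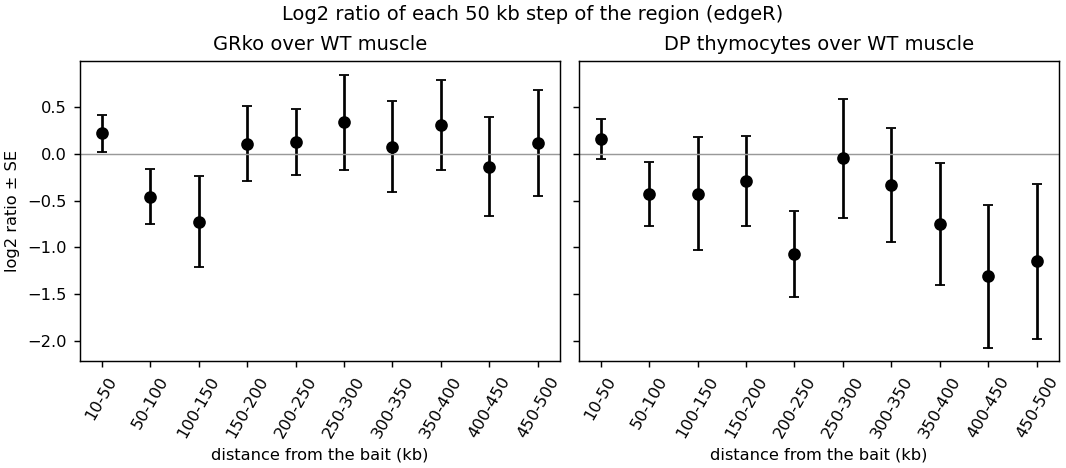
Points give the log2 ratio of each 50 kb step and bars its standard error, both from edgeR, against distance from the bait (kb), for GRko over WT muscle and for thymocytes over WT muscle. Genotype ratios lie on both sides of 0, between -0.72 and 0.33, and 9 of 10 thymocyte ratios lie below 0.

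Resolved into 20 kb steps, the decline was broken at 60 to 80 kb. This step (chr13:101826366-101846365) holds 46 fragments and the pseudogene Gm19108. It took 2.95% of tested reads in thymocytes, 4.17% and 5.06% in WT, against 4.57% and 2.29% in GRko muscle. Per fragment that was 3140 reads in thymocytes, 2620 and 1470 in WT, against 1689 and 315 in GRko muscle. These levels exceeded those of the next step outward, 80 to 100 kb, in all 5 libraries, by between 2.18 and 4.16-fold. Counting each covered fragment once, the excess was 1.03 to 1.38-fold, and with equal numbers of fragments 1.10 to 2.11-fold. The read levels also exceeded those of the step nearer the bait, 40 to 60 kb, by between 1.504 and 2.76-fold in 4 libraries, while GRko replicate 2 was at 0.695 times that step, or 1.11 times with equal numbers of fragments. Few fragments carried the signal in the shallow libraries: the 3 fragments of most reads held 24.6% of the step in thymocytes, 25.5% and 42.0% in WT, against 37.3% and 65.7% in GRko muscle. The fragment at 101833398, 67.0 kb from the bait, was among the 5 with the highest minimum over libraries of their share of region reads, with 7666 reads in thymocytes, 6640 and 9057 in WT, against 5315 and 3869 in GRko muscle.

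Another rise stood at 300 to 320 kb, and this was the only 20 kb step of the region that exceeded both neighbours in reads per fragment in all 5 libraries. It holds 33 fragments, with a median length of 495 bp against 277.5 bp in the region. Reads per fragment were 1751 in thymocytes, 1052 and 634 in WT, against 1176 and 190 in GRko muscle. The step before it had 662 in thymocytes, 648 and 201 in WT, against 509 and 84.3 in GRko muscle, and the step after it had 632, then 849 and 208, then 549 and 32.9. As a share of tested reads, which does not divide by fragments, WT replicate 1 was lower at 300 to 320 kb (1.20%) than at 320 to 340 kb (1.35%). Fragments with reads made up 81.8% of the step in thymocytes, 75.8% and 51.5% in WT, against 60.6% and 30.3% in GRko muscle. In the step after it they made up 84.8%, then 80.4% and 43.5%, then 65.2% and 23.9%. The fragment of most reads held 12.5% of the 300 to 320 kb step in thymocytes, 18.3% and 35.8% in WT, against 27.9% and 72.6% in GRko muscle. Steps above both neighbours in all 5 libraries made up 1 of 24 in the region and 2.05% of 146 within 1.5 Mb; in at least 4 libraries they made up 2 of 24 and 10.3%. The part of fragment length in this rise was not tested.

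**Figure D4:**
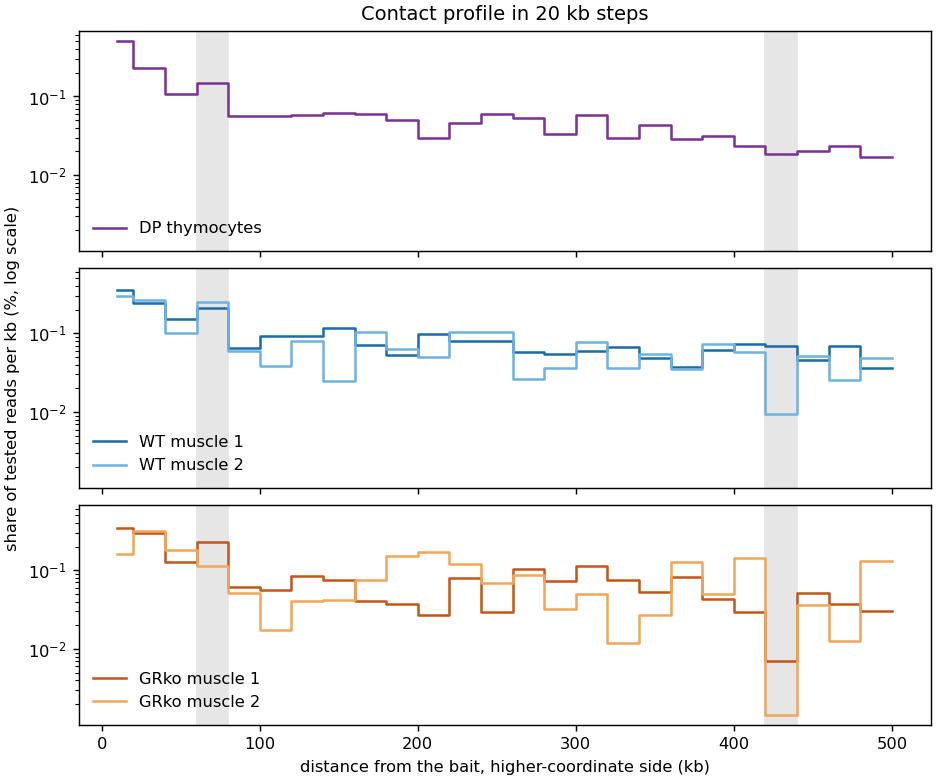
Share of tested reads per kb (percent, log scale) in 20 kb steps against distance from the bait (kb), with 1 line per library and the steps at 60 to 80 kb and 420 to 440 kb shaded. The first shaded step lies above the step after it in all 5 libraries. The second lies below both neighbouring steps in every library except WT replicate 1.

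Measured against a fitted non-increasing decline, no contact peak was shared by the libraries of a group. A peak was a 20 kb step with at least 2 times the reads per fragment expected, in every library of the group. The expected value came from a non-increasing fit over distance on the same side. There were 0 among 25 steps in thymocytes, in WT and in GRko muscle. The fit included the step itself, so a rise could raise its own expected value. In WT replicate 2, the 60 to 80 kb step was 1.70 times expected, although it had 2.76 and 4.16 times the reads per fragment of its neighbours. A count of 0 therefore does not show that no step rose above its neighbours. Single libraries passed at 300 to 320 kb in WT replicate 2 (2.48 times) and GRko replicate 1 (2.73 times). At this step thymocytes had 1.83, WT replicate 1 had 1.43 and GRko replicate 2 had 1.48. GRko replicate 2, the library with fewest covered fragments, passed at 5 steps, none of them 300 to 320 kb. By reads per kb of step, an alternative chosen after seeing the data, neither WT replicate 2 nor GRko replicate 1 passed at 300 to 320 kb. Neither passed there with covered fragments. Both still passed there with capped reads and with fragments read at both lengths. With the expected value fitted on both sides of the bait together, the count was 7 in WT and 6 in GRko muscle and 0 in thymocytes. Muscle libraries held 1.49 to 2.23 times the mirror's reads upstream, and thymocytes 0.891 times. The pooled fit therefore cannot separate a local peak from a surplus along the whole upstream side.

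The 20 kb steps also gave no call in either comparison. In edgeR 0 of 25 were called between GRko and WT muscle, beside 0% of all 144, and 1 passed without adjustment, beside 4.86%. DESeq2 called 0 of these, beside 5.56% of all. Between thymocytes and WT 0 of 25 were called, beside 0% of all 147, and 0 passed without adjustment, beside 4.08%. DESeq2 called 0 of these, beside 2.04% of all. The step with the smallest p between the genotypes was 360 to 380 kb, with 0.755% and 0.711% of tested reads in WT, against 1.62% and 2.52% in GRko muscle and a log2 ratio of 1.499 ± 0.727 (SE; edgeR adjusted p 0.909). Both GRko libraries were above both WT libraries there. Fragments with reads in this step numbered 37 and 18 in WT, against 28 and 21 in GRko muscle, so their counts overlapped. The fragment of most reads held 26.7% and 56.4% of the step in WT, against 32.6% and 47.8% in GRko muscle. The steps at 260 to 280 kb (1.19 ± 0.730) and 480 to 500 kb (0.93 ± 0.779) followed among the positive ratios, and 60 to 80 kb (-0.43 ± 0.338) and 240 to 260 kb (-0.89 ± 0.713) were among the negative ones. Libraries of the genotypes did not overlap in 3 of 25 steps in each direction, beside 13.9% of all steps with GRko higher and 14.6% with GRko lower.

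The most negative genotype ratio came from the least covered step. At 420 to 440 kb (chr13:102186366-102206365) the region holds 87 fragments, of which 37 had no read in any library. The shares were 0.374% in thymocytes, 1.37% and 0.192% in WT, against 0.141% and 0.0292% in GRko muscle, giving a log2 ratio of -3.20 ± 1.78 (SE; edgeR adjusted p 0.909). Both GRko values lay below both WT values, but WT replicate 1 stood apart from all other libraries, and GRko replicate 2 had reads on 6 fragments.

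In thymocytes over WT muscle the 20 kb steps with the smallest p among negative ratios were 200 to 220 kb (-1.31 ± 0.861), 400 to 420 kb (-1.45 ± 0.954) and 60 to 80 kb (-0.65 ± 0.428), all with an edgeR adjusted p of 0.978. Thymocytes were below all 4 muscle libraries in 7 of 25 steps, beside 13.6% of all steps. These included 400 to 420 kb, where 1 fragment held 91.2% of the step's reads in GRko replicate 2. Thymocytes were above all 4 muscle libraries in 1 step, beside 29.9%. That 1 step was the nearest to the bait, at 10 to 20 kb, with 5.03% in thymocytes, 3.57% and 2.94% in WT, against 3.39% and 1.63% in GRko muscle (0.63 ± 0.452).

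Among the annotated genes of the region, Gm41044 took the most reads. Its 33 fragments are 2.74% of the region's, and they held 2.75% of region reads in thymocytes, 4.01% in both WT libraries, against 2.03% and 5.79% in GRko muscle. Of tested reads it took 0.882% of tested reads in thymocytes, 1.77% and 1.55% in WT, against 0.817% and 2.48% in GRko muscle. Thymocytes lay below WT in this gene, and the GRko libraries lay on either side of both. In GRko replicate 2, 5505 of the gene's 15743 reads lay on the fragment at 102013897, which had 1 read in GRko replicate 1. The pseudogene Gm17832 (chr13:101920411-101921235, 4 fragments) had 5150 reads in thymocytes, 1383 and 234 in WT, against 6907 and 418 in GRko muscle. Gm19108 (chr13:101841540-101842306) has 1 fragment, with 46 reads in thymocytes, 93 and 0 in WT, against 12 and 3 in GRko muscle, so the high signal of its 60 to 80 kb step lay on other fragments. Beyond the region, the next annotated gene is the noncoding Gm46397 at 576 kb and the next protein-coding gene is Cd180, which encodes a receptor of the Toll-like family found on B cells, at 927 kb.

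Single fragments varied far more than steps. In thymocytes and WT replicate 1, the fragment of most reads was at 101779217, 12.9 kb from the bait, with 51919 and 30408 reads; it had 488 in WT replicate 2, 13205 in GRko replicate 1 and 1 in GRko replicate 2. It was thus high in the 29 nt libraries and low in the 23 nt libraries. The reverse held at 102174944, 408.6 kb from the bait, a fragment of about 67 bp with 0 reads in thymocytes, 0 and 4133 in WT, against 3 and 16451 in GRko muscle. That fragment alone held 6.06% of the region reads of GRko replicate 2. Another, at 101978225, had 11720 reads in GRko replicate 2 and between 9 and 139 in the other libraries. The fragment at 101799609, 33.2 kb from the bait, had the highest minimum over libraries of its share of region reads, with 17127 reads in thymocytes, 8405 and 5403 in WT, against 8470 and 3545 in GRko muscle. At the edges of the region, the first fragment inside (10.0 kb) had between 9 and 2227 reads and the last outside it between 6 and 4456, and both fragments at the 500 kb edge had 0 reads in all 5 libraries.

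Coverage of the fragments followed library depth and fragment length. At least 1 read was found on 78.2% of the 1204 fragments in thymocytes, 75.0% and 48.9% in WT, against 62.5% and 32.2% in GRko muscle. Reads were present in all 5 libraries on 235 fragments and in none on 169 (14.0%). Fragments with reads in every 29 nt library and in no 23 nt library numbered 132, and the opposite pattern was found on 1. Reads in thymocytes and no muscle library were found on 38 fragments, and reads in all 4 muscle libraries and not in thymocytes on 5. The first rule needs reads in the deepest library alone, the second in all 4 muscle libraries, the shallowest library included. These counts are given without a share over all fragments and do not compare the tissues. Fragments under 50 bp were covered in 49.4% of cases in thymocytes and 9.09% in GRko replicate 2, those of 800 bp or more in 93.5% and 55.4%. The share without a read in any library was 33.1% in the shortest class and 2.38% in the longest.

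**Figure D5:**
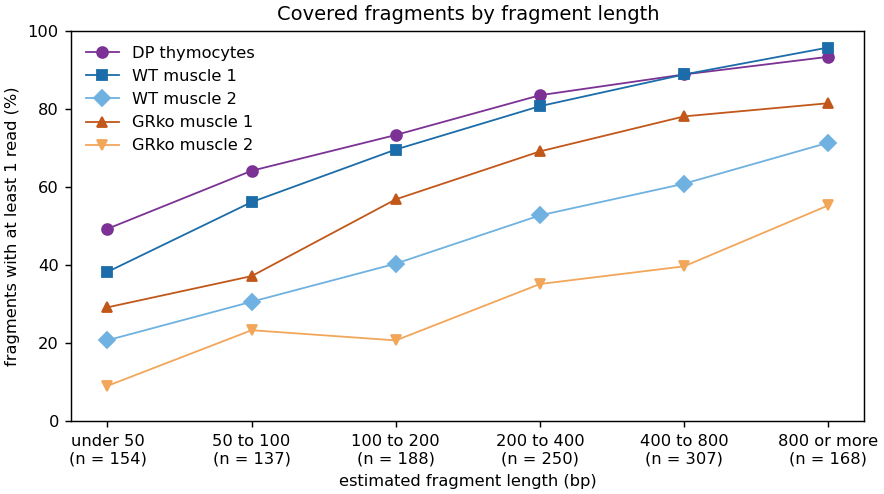
Percent of the region's fragments with at least 1 read, by class of fragment length (bp), with 1 line per library. Coverage is higher in the longest class than in the shortest in all 5 libraries, from 49.4% to 93.5% in thymocytes and from 9.09% to 55.4% in GRko replicate 2.

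The order of the 20 kb steps by reads per fragment was shared only in part. Across 25 steps, Spearman's rho was 0.78 between thymocytes and WT replicate 1, 0.59 between the WT replicates and 0.28 between the GRko replicates. Steps are not independent and all libraries share the decline with distance, so these values describe the libraries and carry no test. The value between thymocytes and WT replicate 1 exceeded both values between replicates of a genotype.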

How the data were processed

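4C-seq with DpnII and Csp6I was run on 5 libraries, per the labels' protocols. What the authors deposited are read counts of each fragment, not normalized, per the file headers. The submitters' processing notes name Bowtie 1.0.0, bcl2fastq and mm10. Any filter on fragments is one that the sources used here do not give. Short reads and short fragments align to unique places less often, which lowers their counts. PCR copies cannot be told from separate ligations.

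Fragments 10 to 500 kb upstream were summed in 50 and 20 kb steps. All steps from 10 kb to 1.5 Mb on both sides were fitted in edgeR 4.0.16 by quasi-likelihood. The genotype comparison used the 4 muscle libraries in 2 groups, and the thymocyte comparison all 5 libraries in 3 groups. Library size was the summed counts. Steps needed at least 10 reads in 2 libraries, and the Benjamini-Hochberg threshold was 0.05. DESeq2 1.42.0 was an alternative. The filter left 59 and 144 steps between genotypes and 60 and 147 between thymocytes and WT muscle, and all steps of the region passed. Standard errors follow from the ratio and its F value. Shares and median distances used exact permutation tests. Contact peaks used an isotonic fit (scikit-learn 1.9.0, pseudocount 0.5). Fragment ends were inferred from midpoints and known sites, to within 47 bp. In the RefSeq promoter windows, 311 of 311 GATC site pairs had a midpoint in the files. The fits were tested on simulated data. At the measured spread, 0% of 2-fold differences were recovered in each comparison and step size. Recovery of 16-fold differences between genotypes was 15% in 50 kb steps and 2.5% in 20 kb steps. Between thymocytes and WT muscle it was 1.25% at both step sizes. At a low spread (dispersion 0.02), 73.75% to 92.5% of 2-fold differences were recovered.

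Named were all 50 kb steps, the 3 steps of 20 kb with the smallest p per direction, contact peaks, overlapping and nearest genes, the 3 fragments of most reads per library and the 5 with the highest lowest share. From these fragments, those the text describes were picked after their values were seen, as were the steps at 60 to 80 and 300 to 320 kb. The region and these rules were chosen with earlier results of these data known. Other settings included covered fragments, capped reads, equal numbers of fragments, 25 kb left out, TMM, and each replicate left out. The replicate number equals the read length, and was not treated as a pairing.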

Additional observations from a re-analysis of the deposited data

How the results depend on the processing

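The thymocyte library stayed below the WT mean in its share of reads in the region and in its upstream share within 500 kb under every alternative run, but in the region share with fragments read at both lengths it lay above WT replicate 2 (43.0% against 39.99%). The difference between GRko and WT muscle in the region share changed sign, from 0.230 points to -0.440 with capped reads, -1.74 with equal numbers of fragments, -1.09 with fragments read at both lengths, -1.36 without the 10 fragments of most reads and -3.85 within 29 nt libraries. Leaving out 1 replicate gave -2.58 to 3.04. In the upstream share it turned to 0.801 with covered fragments. In the median distance it turned from 11.6 kb to -9.87 with covered fragments, -6.43 with fragments of at least 10 reads, -6.24 with capped reads, -1.96 with equal numbers of fragments and -17.6 within 29 nt libraries, and ran from -19.3 to 42.5 kb with 1 replicate left out. The median distance of thymocytes minus WT turned to 12.3 kb with covered fragments and 6.27 kb with fragments of at least 10 reads. The cause was not tested.

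Counts of steps called in the region were 0 in most settings. Leaving out 1 replicate gave 0 to 1 at 50 kb in both comparisons, the 1 without GRko replicate 1. Equal numbers of fragments called 1 between thymocytes and WT (350 to 400 kb, edgeR adjusted p 0.0443), among 15 of 41 over all steps tested. Under the replicate block, 0 steps were called in the region in each comparison and step size, so it changed no call there; over all 60 steps of 50 kb between thymocytes and WT it called 1 in place of 2. Contact peaks numbered 7 in WT and 6 in GRko muscle with the expected value from both sides, 0 to 1 in WT and 1 to 5 in GRko muscle with 1 replicate left out (1 without WT replicate 1, 5 without GRko replicate 1). Among ratios of single steps, 39 values changed sign without a call, 3 passed the threshold and 268 did neither. Limits: with 388 covered fragments, GRko replicate 2 sets the precision of its group. Standard errors of 50 kb steps reached 0.826 on the log2 scale, so a count of 0 does not show that steps are equal.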
